A study of Mus musculus with 10 samples.

Results

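The genes described here encode cytosolic and mitochondrial chaperones of the mouse retina. They were taken as a fixed list of 51 heat shock, J-domain, BAG, small heat shock and chaperonin genes, matched by symbol. Of these, 47 were present in the authors' table of 11702 genes, and Hspa2, Hspb1, Hspb11 and Bag2 were found only in the transcript table. The list was made by gene name and family and not by a cutoff on measured values.

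Chaperones bind unfolded proteins and help them fold, stay soluble or be degraded. HSP70 proteins hold short stretches of unfolded chain in a cycle driven by ATP, in which J-domain proteins bring the substrate and start hydrolysis, while HSP110 and BAG proteins exchange the nucleotide. HSP90 completes the folding of kinases and receptors, the TRiC ring folds actin and tubulin, HSP60 with HSP10 folds proteins in the mitochondrial matrix, and small heat shock proteins hold aggregating proteins. HSF1 is the transcription factor that drives the inducible members when unfolded protein accumulates. Photoreceptors renew a large membrane of rhodopsin and phototransduction proteins and depend on several of these factors.

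PolyA RNA was sequenced from retinas of female mice in 10 libraries. All animals received intravitreal injections of 1 μL at P10 and P24, and the retinas were collected at P36. The WT DMSO group (vehicle) had 4 libraries, W1 to W4. The rd10 DMSO group (vehicle) had 3, D1 to D3, and the rd10 HAL group (20 μM halofantrine, an antimalarial compound) had 3, H1 to H3. The rd10 mice were of the strain B6.CXB1-Pde6brd10/J, in which a mutation of Pde6b, a subunit of the rod phosphodiesterase, leads to the loss of rods. The strain of the WT mice was not given in the sources used here. The labels assign D3, H2 and H3 to batch 2 and the remaining 7 libraries to batch 1, without saying what a batch was. The titles give the WT libraries other set names than the rd10 libraries, so set and genotype cannot be told apart. Among the WT libraries W4 alone carries a set name of its own. In batch 2 the set name of H2 and H3 differs from that of D3, so set and halofantrine cannot be told apart there. The question of the comparisons was which chaperone mRNAs differ between the degenerating and the WT retina, and between halofantrine and vehicle in the rd10 retina.

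The libraries held 15512212 to 38160436 estimated counts. The summed level of 10 rod markers was 76289 to 80211 counts per 1000000 of TMM-scaled library size (CPM) in W1 to W3 and 2943 in W4. It was 4000.5 to 11207 in rd10 DMSO and 3776 to 9424 in rd10 HAL. W4, which is labelled WT, thus stood with the rd10 libraries for the markers of the cell type that the mutation removes. It lay within the range of the 6 rd10 libraries for 40 of the 47 chaperones and nearer to their mean than to that of W1 to W3 for 42. These 2 counts describe W4 and were not taken over all genes. Every comparison with WT is therefore given with all 4 libraries labelled WT and with W1 to W3 only. The markers of gliosis, Müller glia and microglia were also higher in the rd10 libraries (gliosis, 7 genes, 222 to 253 CPM in W1 to W3 and 1184 to 1451 in rd10). Summed markers of bipolar cells (7 genes) were higher as well, at 1405 to 1494 CPM in W1 to W3 and 2296 to 2727 in rd10 DMSO. Those of amacrine and ganglion cells (9 genes) were at 1538 to 1597 and 2181 to 2475. Cone markers (9 genes) were not higher, at 1706 to 1875 and 1462 to 1765. The endothelium sum (5 genes, 181 to 202 and 289 to 487) was mostly Kdr, at 153 to 170 and 256 to 454. Cdh5 was also higher, while Cldn5, Pecam1 and Tie1 overlapped. Immediate early markers (10 genes) summed to 136 to 146 and 174 to 232, with Egr1 at 16.2 to 19.0 and 58.1 to 88.4. Pigment epithelium markers (8 genes) were at 59.2, 46.6 and 290 in W1, W2 and W3 and 161 to 463 in rd10 DMSO. The part of these shifts in the differences given below was not tested. All values are from whole retina, in which fewer cells of a type and less RNA per cell cannot be told apart.

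The 250 bases before the start of Hspa1a and Hspa1b are shown because these 2 inducible HSP70 genes gave the largest differences below. They are from RefSeq on GRCm38.p6, at chr17:34972157-34972406 and chr17:34959239-34959488, both on the minus strand. The capitals mark the only match in each to the short heat shock element GAANNTTC, an inverted pair of the triplet that HSF1 contacts, which ends 96 bases before the start.
Hspa1a: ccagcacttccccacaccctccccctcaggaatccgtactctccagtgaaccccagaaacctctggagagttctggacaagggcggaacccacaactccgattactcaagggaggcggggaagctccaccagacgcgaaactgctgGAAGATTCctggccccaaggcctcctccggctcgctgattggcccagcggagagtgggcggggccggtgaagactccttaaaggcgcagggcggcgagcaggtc
Hspa1b: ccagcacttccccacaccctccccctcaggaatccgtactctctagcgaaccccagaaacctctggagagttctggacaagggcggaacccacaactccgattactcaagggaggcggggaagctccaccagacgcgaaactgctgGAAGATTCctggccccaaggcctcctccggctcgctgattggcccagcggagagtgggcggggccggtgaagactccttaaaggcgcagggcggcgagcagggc
The stretches were identical at 247 of 250 bases. The 40 listed members with a promoter entry were searched for motifs on both strands in the same window. GAANNTTC was found in 10 of them (25%), against 5.92% of 8899 genes of the gene table with an entry. Both shares count a gene with a match in any of its listed promoters, and counted singly 6.69% of 32851 promoters held it. The longer element GAANNTTCNNGAA (or its reverse complement TTCNNGAANNTTC), which contains GAANNTTC, was found in 3 members (7.5%), against 0.483% of those genes and 0.466% of all promoters. Those were Dnajb6 and the pair Hspd1 and Hspe1, whose windows overlap on opposite strands and share 1 site. The 10 members with GAANNTTC include this pair with its shared site, and Hspa1a and Hspa1b with their near-identical windows. The 40 members include Hspa2, Hspb1, Hspb11 and Bag2, which are outside the gene table. The sites of Dnajb6 and Hspe1 are shown, with the matches in capitals, because they hold the full element. The Dnajb6 site lies at chr5:29735847-29735869 on the plus strand, and the Hspe1 site, with 2 overlapping matches, at chr1:55088054-55088081 on the plus strand.
Dnajb6: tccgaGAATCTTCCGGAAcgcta
Hspe1: gtccgTTCTAGAACCTTCCGGAAggccc
A match is a description of the letters in the window. Hspa8, Hspa9, Hspa13, Hsp90aa1, Hsp90ab1, Cryab, Dnajc5, Bag4, Hsf1, St13 and Cct4 had no entry.

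In rd10 DMSO retinas at P36, the inducible HSP70 genes Hspa1a and Hspa1b were lower than in W1 to W3, as were Hsp90aa1, Hsf2 and the chaperonin subunits Cct4 and Cct5. The small heat shock protein Cryab, the co-chaperone Bag3 and Hsp90ab1 were higher. With W1 to W3 as the WT group, 27 of the 47 members were called at an adjusted p under 0.05 (edgeR quasi-likelihood test, Benjamini-Hochberg over all genes). That share, 57.4%, stands against 62.2% of the 11696 genes tested. Of the members, 10 rose and 17 fell, against 32.2% and 29.9% of all genes. The median log2 fold change was -0.09 over the members and -0.01 over all genes.

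With all 4 libraries labelled WT, edgeR called 0 members and 0 genes (0.0%). The lowest adjusted p was 0.19 for members and for all genes alike. An unadjusted p under 0.05 was reached by 12 members and by 25.7% of genes. DESeq2 called 3 members, Hsph1, Hspa1a and Hspa1b, and 589 genes (5.04%) on the same 7 libraries. In the following, rose and fell refer to the test without W4, and each value is a log2 fold change of rd10 DMSO over W1 to W3 unless said otherwise. The log2 fold change that edgeR gave with W4 in the WT group, which passed for no member, stands last in the brackets. Scaling by library size alone, without W4, moved the median of all genes to 0.19 and gave 19 members higher and 9 lower, against 46.1% and 17.4% of all genes. Of the 27 calls, 19 stayed and 8 were lost under that scaling, Cct3, Dnaja3, Dnajb2, Dnajb6, Dnajc7, Hsf1, Hspa14 and Trap1, and none of the 27 changed sign. The 9 calls gained, all higher, were Bag4, Cct8, Dnaja2, Dnajb14, Dnajb4, Hspa8, St13, Stip1 and Tcp1. Of these, Cct8, Dnaja2 and Dnajb4 had values below 0 with TMM scaling (-0.02, -0.02 and -0.04) and of 0.19, 0.19 and 0.17 with library size alone.

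The CPM values of rd10 DMSO and W1 to W3 did not overlap for 31 members (11 higher, 20 lower), against 69.1% of all genes. With W4 in the WT group, 5 members did not overlap, against 10.1%. These were Hsph1, higher in rd10, and Trap1, Hspd1, Dnajb6 and Ahsa1, lower. Over all 6 rd10 libraries, 26 members lay wholly on 1 side of W1 to W3 (63.7% of all genes did). W4 was nearer to the rd10 mean in 26 of those 26, a count not taken over all genes.

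**Figure D1:**
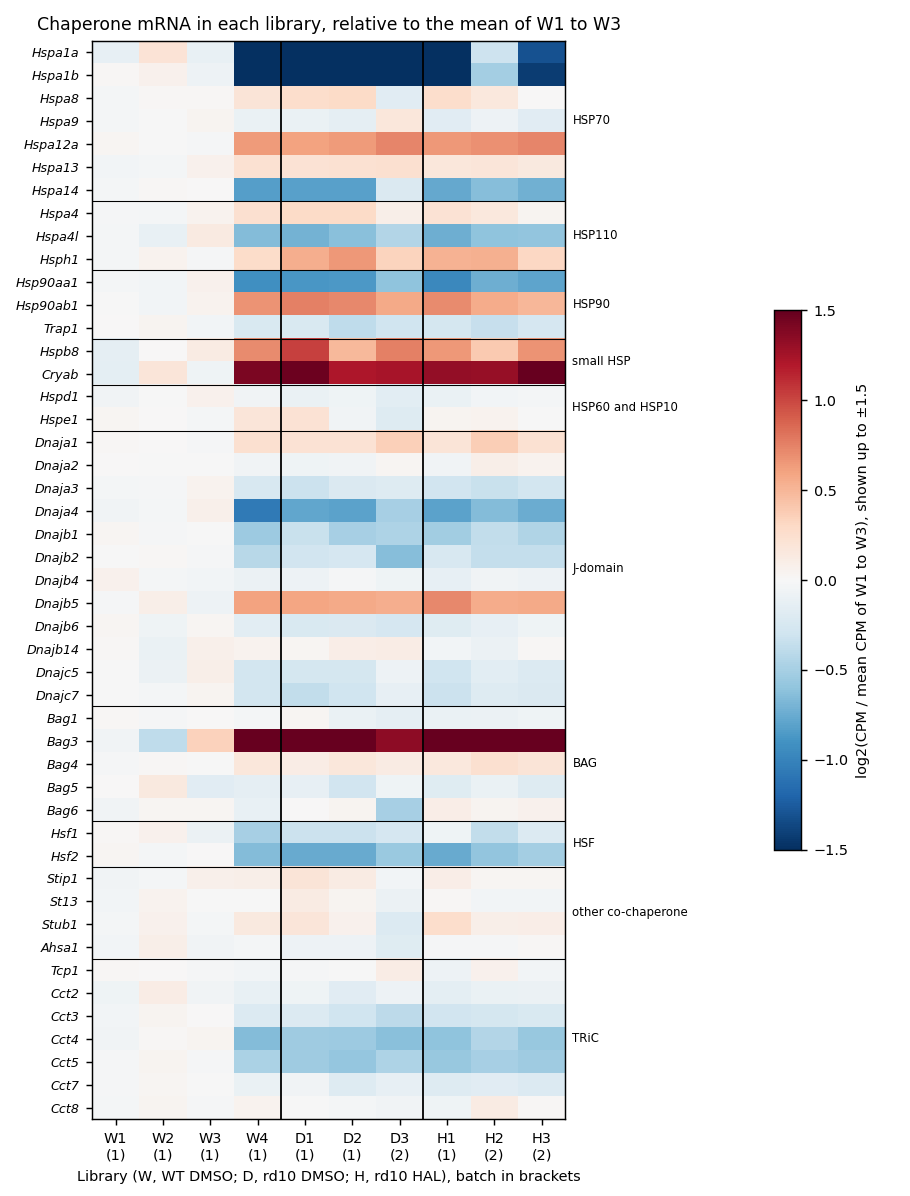
Level of each of the 47 chaperones (rows, grouped by role) in each of the 10 libraries (columns, with the batch in brackets), as log2 of the CPM over the mean CPM of W1 to W3. Red is higher and blue is lower, with the colour scale ending at 1.5 in either direction. W4 carries the colours of the rd10 libraries, and H2 and H3 are paler than the other rd10 libraries for Hspa1a and Hspa1b.

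Among the 7 HSP70 genes, 2 rose, 3 fell and 2 did not pass the test (32.2% of all genes rose and 29.9% fell). Hspa1a, the stress-inducible HSP70, was at 30.2, 38.0 and 30.4 CPM in W1, W2 and W3, 3.97 in W4 and 6.72, 5.64 and 3.51 in D1 to D3. The groups without W4 were far apart, and W4 was at the level of the rd10 libraries. Hspa1a fell 6.21-fold (log2 fold change -2.60, SE 0.21, adjusted p = 5.1e-05, -2.27 with W4). Its near copy Hspa1b was at 20.5, 21.3 and 19.3 CPM in W1, W2 and W3, 2.08 in W4 and 2.83, 3.54 and 1.97 in D1 to D3, and fell 7.33-fold (log2 fold change -2.82, SE 0.19, adjusted p = 2.5e-05, -2.49 with W4). The longest reading frames of the 2 genes were identical at 99.6% of aligned bases, and the stretches after them at 61.1%, so reads can be told apart only in part and the split between the genes is uncertain. Their summed counts gave 50.8, 59.3 and 49.7 CPM in W1, W2 and W3, 6.05 in W4 and 9.54, 9.18 and 5.47 in D1 to D3, and the sum fell by 2.69 on the log2 scale (adjusted p = 3.3e-05). With all 4 libraries labelled WT, the sum had a log2 fold change of -2.35 with an adjusted p of 0.19 by edgeR and of 0.024 by DESeq2. The alternatives that kept W4 gave adjusted p-values of 0.024 to 0.40, and those without it all passed.

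Hspa8, the constitutive HSP70 that also uncoats clathrin vesicles, had with Hsp90aa1 the highest level per transcript length of all members, 586 CPM per kilobase in W1 to W3. It was at 1238, 1277 and 1278 CPM in W1, W2 and W3 and 1522, 1543 and 1124 in D1 to D3, and did not pass the test (log2 fold change 0.15, adjusted p = 0.30, 0.09 with W4). D3 was below W1 to W3, while D1 and D2 were above them. With batch 1 libraries only, which leaves out D3, and without W4, Hspa8 passed as higher (0.29, adjusted p = 0.0012), as did Bag4 and Stip1, and Dnajc5 passed as lower. Hspa12a, a divergent HSP70 enriched in neurons, was at 298, 291 and 289 CPM in W1, W2 and W3, 458 in W4 and 446, 458 and 485 in D1 to D3. It rose in all 3 rd10 libraries (log2 fold change 0.67, SE 0.062, adjusted p = 7.7e-05, 0.47 with W4). Hspa13, a microsomal HSP70 with an ATPase domain only, rose (log2 fold change 0.24, adjusted p = 0.0096, 0.17 with W4). Hspa14, a ribosome-associated HSP70, fell (log2 fold change -0.59, adjusted p = 0.014, -0.42 with W4). D1 and D2 were at 28.9 and 29.0 CPM, whereas D3 was at 43.7, nearer to the 50.1, 51.6 and 51.1 CPM of W1 to W3. Hspa9, the HSP70 of the mitochondrial matrix, was at 173 ± 4.31 CPM (SD, n = 3) in W1 to W3 and 171 ± 20.1 in rd10 DMSO, which is within the spread of the rd10 libraries.

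All 3 HSP110 genes, whose products act as nucleotide exchange factors for HSP70, were called, as were 62.2% of all genes, with 2 higher and 1 lower. Hsph1 (HSP105) was at 78.3, 82.6 and 78.6 CPM in W1, W2 and W3, 96.6 in W4 and 117, 125 and 101 in D1 to D3. It rose (log2 fold change 0.53, SE 0.084, adjusted p = 0.001, 0.44 with W4) and was the member with the smallest unadjusted p with all 4 libraries labelled WT (0.0047 by edgeR, adjusted 0.19). Hspa4l, its relative that is also abundant in testis, fell from 453, 429 and 507 CPM in W1, W2 and W3 to 283, 299 and 340.3 in D1 to D3 (log2 fold change -0.58, adjusted p = 0.0012, -0.45 with W4). Hspa4, added to the named genes after its value was seen, rose (log2 fold change 0.23, adjusted p = 0.023, 0.16 with W4).

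The 2 cytosolic HSP90 genes moved in opposite directions. Hsp90aa1, the form that heat shock induces in most cells, was at 1683, 1673 and 1790.1 CPM in W1, W2 and W3, 906 in W4 and 940.0, 940.4 and 1127 in D1 to D3. It fell 1.71-fold (log2 fold change -0.76, SE 0.093, adjusted p = 2.7e-04, -0.59 with W4). Hsp90ab1, the constitutive form, was at 516, 506 and 537 CPM in W1, W2 and W3, 831 in W4 and 879.8, 855 and 771 in D1 to D3. It rose 1.61-fold (log2 fold change 0.70, SE 0.073, adjusted p = 1.3e-04, 0.48 with W4). The reading frames of the pair were identical at 76.6% of aligned bases.

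The CPM ratio of Hsp90aa1 to Hsp90ab1, examined after the values were seen, was 3.26, 3.31 and 3.33 in W1 to W3, 1.09 in W4, 1.07, 1.10 and 1.46 in D1 to D3 and 1.03, 1.35 and 1.35 in H1 to H3. The 3 rd10 libraries of batch 2 had higher ratios than the 3 of batch 1, and all 6 were below W1 to W3. The difference of its log2 between rd10 DMSO and W1 to W3 was -1.46, and against all 4 libraries labelled WT it was -1.06. No p-value is given, because the ratio was chosen on these libraries. Trap1, the mitochondrial HSP90, fell (log2 fold change -0.29, adjusted p = 0.0047, -0.25 with W4).

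**Figure D2:**
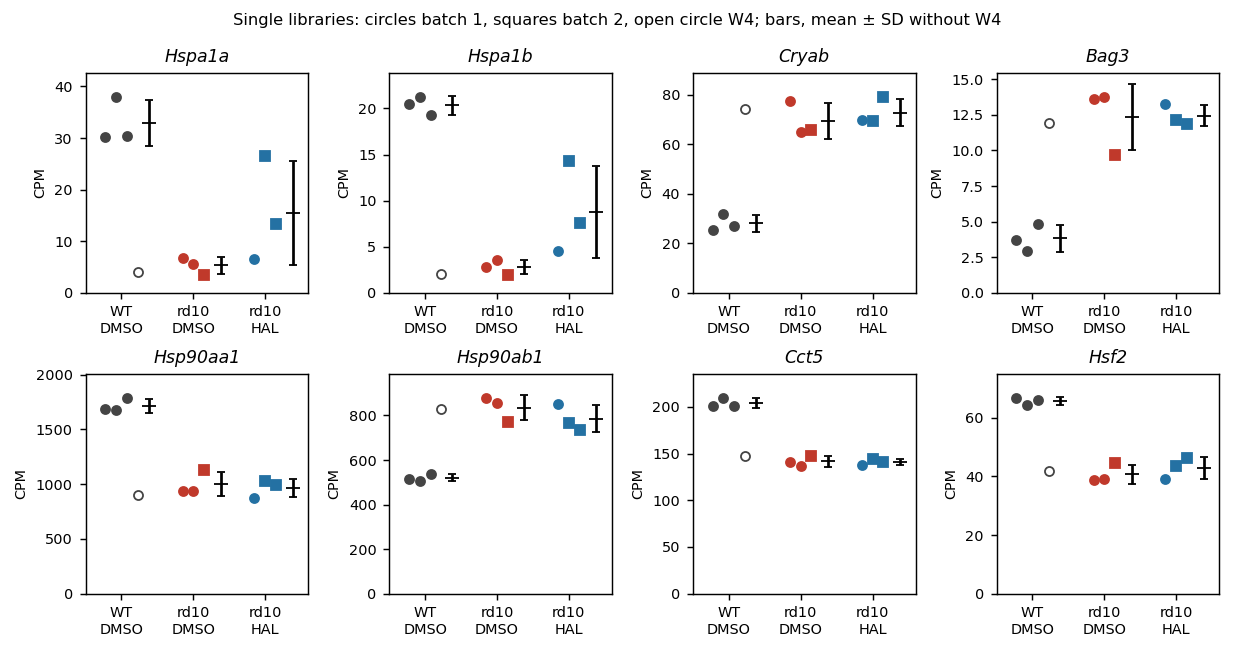
CPM (y axes, from 0) of 8 chaperones in the 10 libraries by group, with circles for batch 1, squares for batch 2, an open circle for W4 and black bars for the mean ± SD of the group without W4. Hspa1a, Hspa1b, Hsp90aa1, Cct5 and Hsf2 are lower and Cryab, Bag3 and Hsp90ab1 higher in the rd10 DMSO libraries than in W1 to W3, and the W4 circle lies with the rd10 points or, for Hspa1a, just among them.

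Of the small heat shock genes in the gene table, the 2 listed members Cryab and Hspb8 rose, as did 32.2% of all genes. Hspb6, which was in a wider list and is named after its value was seen, fell (log2 fold change -0.60, adjusted p = 6.4e-04, -0.40 with W4). Cryab (αB-crystallin), which holds aggregating proteins in lens, muscle and glia, was at 25.4, 31.8 and 26.9 CPM in W1, W2 and W3, 74.5 in W4, 77.7, 64.9 and 65.9 in D1 to D3 and 69.8, 69.6 and 79.3 in H1 to H3. The rd10 values lay wholly above W1 to W3, and Cryab rose 2.48-fold (log2 fold change 1.32, SE 0.11, adjusted p = 5.1e-05, 0.81 with W4). The summed level of 15 lens genes was at most 10.5 CPM in W1 to W3 and 5.14 to 12.9 in rd10 DMSO, with 3 of them at or under 1 CPM in every library. Müller glia markers, 7 genes, summed to 3877 to 3995 CPM in W1 to W3 and 5986 to 7261 in rd10 DMSO, and the part of either list in the Cryab result was not tested. Hspb8, which forms a complex with Bag3 that feeds damaged proteins to autophagy, was at 6.36, 7.01 and 7.64 CPM in W1, W2 and W3 and 14.2, 9.83 and 11.9 in D1 to D3 (log2 fold change 0.78, adjusted p = 0.0043, 0.56 with W4).

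Bag3, the partner of Hspb8, was the member with the largest rise. It was at 3.70, 2.92 and 4.84 CPM in W1, W2 and W3, 12.0 in W4, 13.6, 13.8 and 9.66 in D1 to D3 and 13.3, 12.2 and 11.9 in H1 to H3. The lowest rd10 library, D3, was above the highest of W1 to W3, and Bag3 rose 3.23-fold (log2 fold change 1.72, SE 0.22, adjusted p = 3.7e-04, 1.07 with W4). The other 4 BAG genes, Bag1, Bag4, Bag5 and Bag6, did not pass the test, with values of -0.15 to 0.15. Bag6, which guards membrane proteins before insertion, was at 214, 226 and 226 CPM in W1, W2 and W3 and 223, 227 and 156 in D1 to D3, so that D3 alone was low.

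Of the 12 J-domain genes, 2 rose, 6 fell and 4 did not pass the test (32.2% of all genes rose and 29.9% fell). Dnajb5, a J-domain protein of muscle and brain, was at 44.3, 47.7 and 42.7 CPM in W1, W2 and W3 and 67.4, 66.7 and 65.5 in D1 to D3 and rose (log2 fold change 0.58, SE 0.064, adjusted p = 1.8e-04, 0.39 with W4). Dnaja1, a farnesylated partner of Hspa8, rose (log2 fold change 0.27, adjusted p = 0.0057, 0.20 with W4). The largest fall was that of Dnaja4, at 49.9, 51.1 and 54.8 CPM in W1, W2 and W3, 24.9 in W4 and 30.2, 29.7 and 36.8 in D1 to D3 (log2 fold change -0.68, SE 0.10, adjusted p = 6.5e-04, -0.48 with W4). Dnajb1 (HSP40), the main inducible partner of the inducible HSP70s, was at 60.2, 58.0 and 58.6 CPM in W1, W2 and W3 and 46.7, 41.9 and 42.9 in D1 to D3 (log2 fold change -0.42, adjusted p = 9.0e-04, -0.31 with W4). Dnajb2, a J-domain protein of neurons that sends substrates to the proteasome, fell (log2 fold change -0.37, adjusted p = 0.014, -0.29 with W4), as did the mitochondrial Dnaja3 (log2 fold change -0.23, adjusted p = 0.014, -0.19 with W4), and Dnajb6, an inhibitor of polyglutamine aggregation (log2 fold change -0.22, adjusted p = 0.0091, -0.19 with W4). Dnajc7, likewise added after its value was seen, fell (log2 fold change -0.25, adjusted p = 0.02, -0.19 with W4). Dnaja2, Dnajb4, Dnajb14 and Dnajc5 (the synaptic vesicle protein CSPα) did not pass, with values of -0.18 to 0.09.

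Both heat shock factors fell, as did 29.9% of all genes. Hsf2, which acts in development and can form mixed trimers with HSF1, was at 66.9, 64.4 and 65.9 CPM in W1, W2 and W3, 41.9 in W4 and 38.8, 39.1 and 44.5 in D1 to D3 (log2 fold change -0.68, SE 0.073, adjusted p = 1.5e-04, -0.55 with W4). The rd10 values were all below W1 to W3 with no overlap. Hsf1 was at 63.7, 65.8 and 58.9 CPM in W1, W2 and W3 and 50.4, 50.1 and 52.6 in D1 to D3, a smaller change (log2 fold change -0.29, adjusted p = 0.0059, -0.19 with W4). Its activity depends on its modification and place in the cell and cannot be read from its mRNA.

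Of the 7 subunits of TRiC in the list, 3 fell and 4 did not pass the test (32.2% of all genes rose and 29.9% fell). Cct4 was at 134, 141 and 143 CPM in W1, W2 and W3, 88.9 in W4 and 96.0, 95.4 and 89.9 in D1 to D3 (log2 fold change -0.56, SE 0.057, adjusted p = 1.2e-04, -0.43 with W4). Cct5 was at 201, 209.8 and 201 CPM in W1, W2 and W3, 147 in W4 and 141, 136 and 148 in D1 to D3 (log2 fold change -0.51, SE 0.058, adjusted p = 1.9e-04, -0.42 with W4). Cct3 fell less (log2 fold change -0.29, adjusted p = 0.0057, -0.25 with W4). Tcp1, Cct2, Cct7 and Cct8, subunits of the same ring, had values of -0.11 to 0.04. The sign of Cct2, Cct7 and Cct8 turned when library size alone was used for scaling, and without W4 Cct8 then passed the test as higher (log2 fold change 0.19, adjusted p = 0.016). With a GC offset and without W4, Cct7 passed as lower (-0.19, adjusted p = 0.013), as did Ahsa1, Bag6 and Dnajc5. Since the subunits are assembled in equal number, their proportions were compared: the CPM ratio of Cct5 to Cct8 was 1.36 to 1.38 in W1 to W3, 0.953 in W4 and 0.892 to 1.03 in the 6 rd10 libraries. This ratio was chosen after the values were seen. The summed CPM of the 7 subunits was 1032 to 1079 in W1 to W3 and 877 to 914 in D1 to D3.

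The mitochondrial chaperonin genes did not pass the test. Hspd1 (HSP60) was at 124, 128 and 135 CPM in W1, W2 and W3 and 121, 123 and 116 in D1 to D3 (log2 fold change -0.09, adjusted p = 0.19, -0.09 with W4). Hspe1 (HSP10) was at 26.7, 26.3 and 25.6 CPM in W1, W2 and W3 and 30.4, 25.3 and 22.9 in D1 to D3 (log2 fold change 0.01, adjusted p = 0.92, -0.05 with W4). The 3 rd10 libraries bracketed W1 to W3 for Hspe1. The co-chaperones Stip1 and St13, which link HSP70 to HSP90, the ubiquitin ligase Stub1 and the HSP90 activator Ahsa1 did not pass either, with values of -0.10 to 0.10.

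**Figure D3:**
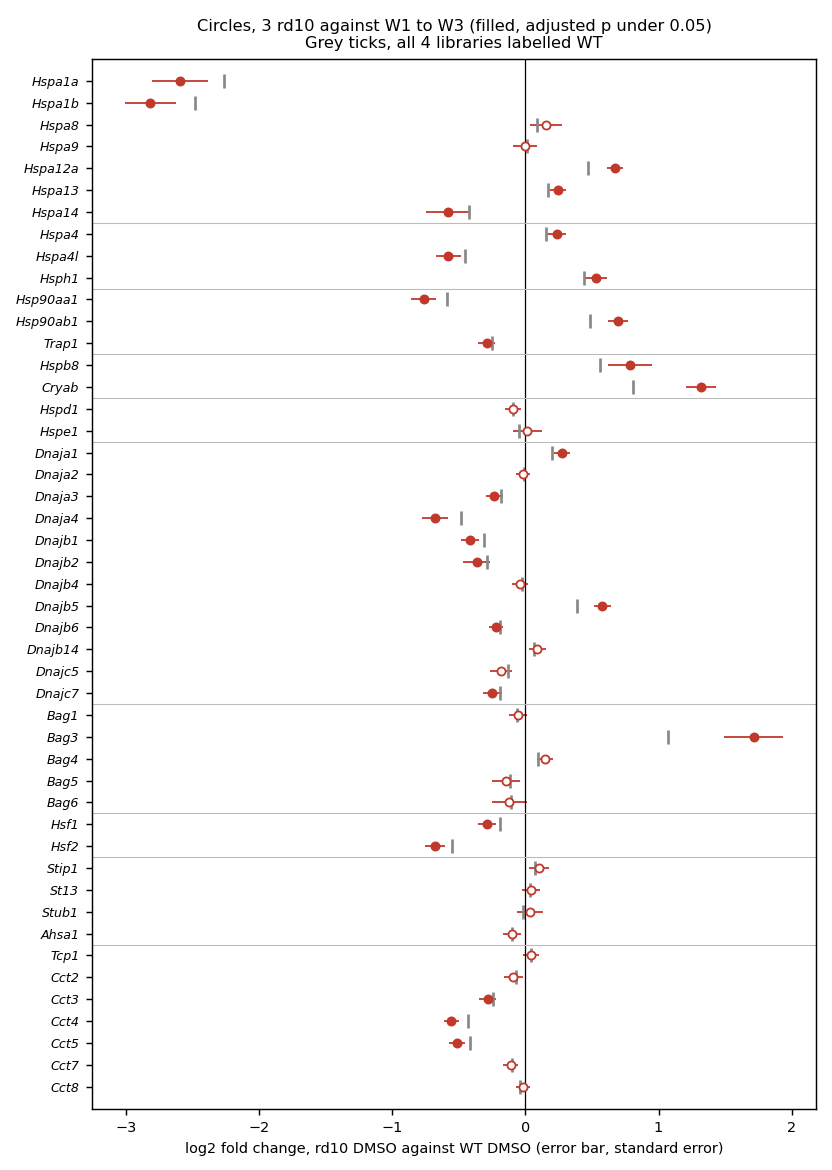
The log2 fold change of rd10 DMSO over WT DMSO for each of the 47 chaperones (rows, grouped by role). Circles with standard error bars compare D1 to D3 with W1 to W3 and are filled where the adjusted p was under 0.05 (27 genes), and grey ticks give the value with all 4 libraries labelled WT, of which 0 passed. The ticks lie nearer to 0 than the circles for most called genes, and Hspa1a, Hspa1b, Bag3 and Cryab lie farthest from 0.

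The 4 listed genes outside the gene table were summed from their transcripts and not tested. Hspb1 (HSP25), the best known inducible small heat shock gene, was at 2.70, 1.92 and 2.45 CPM in W1, W2 and W3, 5.53 in W4, 6.76, 5.12 and 3.88 in D1 to D3 and 5.81, 6.19 and 5.48 in H1 to H3. The rd10 libraries all lay above W1 to W3, with W4 among them. Bag2, which inhibits Stub1, was at 6.26, 6.86 and 6.07 CPM in W1, W2 and W3, 8.99 in W4, 8.89, 10.8 and 9.29 in D1 to D3 and 9.25, 9.26 and 9.28 in H1 to H3. It too was higher in every rd10 library. Hspa2 ranged from 4.43 to 5.31 CPM in W1 to W3 and from 4.61 to 8.77 in D1 to D3, and Hspb11 from 5.35 to 7.87 and from 5.86 to 7.91, with overlap in both.

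Halofantrine gave no call among the chaperones. For rd10 HAL against rd10 DMSO, edgeR called 0 of the 47 members and 0 of 11692 genes (0.0%), and DESeq2 called 0 members and 3 genes. An unadjusted p under 0.05 was reached by 2 members, Hspa1b and Hspa1a, and by 4.78% of genes. The median log2 difference was -0.00086 over the members and -0.0045 over all genes. The groups did not overlap for 6 members, against 13.1% of genes, namely Hspa1b, Dnajb6, Bag6 and Ahsa1, higher with halofantrine, and Hspa13 and Dnajb14, lower.

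Hspa1b was at 2.83, 3.54 and 1.97 CPM in D1 to D3 and 4.48, 14.3 and 7.58 in H1 to H3. All 3 halofantrine libraries were above all 3 DMSO libraries, and H2 was the highest (log2 fold change 1.63, SE 0.43, adjusted p = 0.89, unadjusted p = 0.0063). Hspa1a was at 6.72, 5.64 and 3.51 CPM in D1 to D3 and 6.62, 26.6 and 13.3 in H1 to H3, with H1 within the range of the DMSO libraries (log2 fold change 1.53, SE 0.52, adjusted p = 0.89, unadjusted p = 0.023). The summed pair had a log2 difference of 1.57 and an adjusted p of 0.89, and without H2 a difference of 0.97 and an adjusted p of 1.0. Over all alternatives its adjusted p lay between 0.44 and 1.0. Within batch 1, H1 minus the mean of D1 and D2 was 0.24 for the pair on the log2 CPM scale, and within batch 2, the mean of H2 and H3 minus D3 was 2.40. With batch as a term, edgeR called 0 members and 0 genes (0.0%), with 4 members and 16.5% of genes at an unadjusted p under 0.05. The difference of the pair in that fit was 1.28 (SE 0.74, adjusted p = 0.44). H2, the library with the highest Hspa1a and Hspa1b of the rd10 groups, also had the highest sum of lens markers (37.0 CPM, against 4.95 to 12.9 in the other 9 libraries). Its sum of blood markers (5 genes) was the highest too, at 104 CPM. H3, next for Hspa1a and Hspa1b among the rd10 libraries, was next for blood markers as well, at 86.7 CPM. The blood sums were 12.7 to 32.8 CPM in D1 to D3 and H1 and 27.2 to 68.2 in W1 to W4. The part of lens and blood markers in the result was not tested. Hspa1a and Hspa1b in H1 to H3 were still below each of W1 to W3, and their log2 fold changes against W1 to W3 were -1.07 (adjusted p = 0.15) and -1.20 (adjusted p = 0.066).

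The next smallest p-values of this comparison were those of Dnajb14, Dnajb6 and Ahsa1. Dnajb14, a J-domain protein of the endoplasmic reticulum membrane, was at 146, 152 and 153 CPM in D1 to D3 and 138, 134 and 144 in H1 to H3 (log2 fold change -0.12, SE 0.058, adjusted p = 0.89). Dnajb6 was at 93.7, 94.5 and 92.1 CPM in D1 to D3 and 96.4, 101 and 105 in H1 to H3 (log2 fold change 0.11, adjusted p = 0.89). Ahsa1 was at 65.7, 65.6 and 61.1 CPM in D1 to D3 and 68.7, 68.5 and 70.1 in H1 to H3 (log2 fold change 0.10, adjusted p = 0.89). The means with halofantrine were 0.923, 1.08 and 1.08 times those with DMSO. The members that differed most between rd10 DMSO and W1 to W3 other than the HSP70 pair had log2 differences with halofantrine of 0.07 (Cryab) and -0.0006 (Bag3). The log2 difference had the same sign in both batches for 27 of the 47 members and opposite signs for the rest. This count was not taken over all genes and is not read as agreement between the batches.

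**Figure D4:**
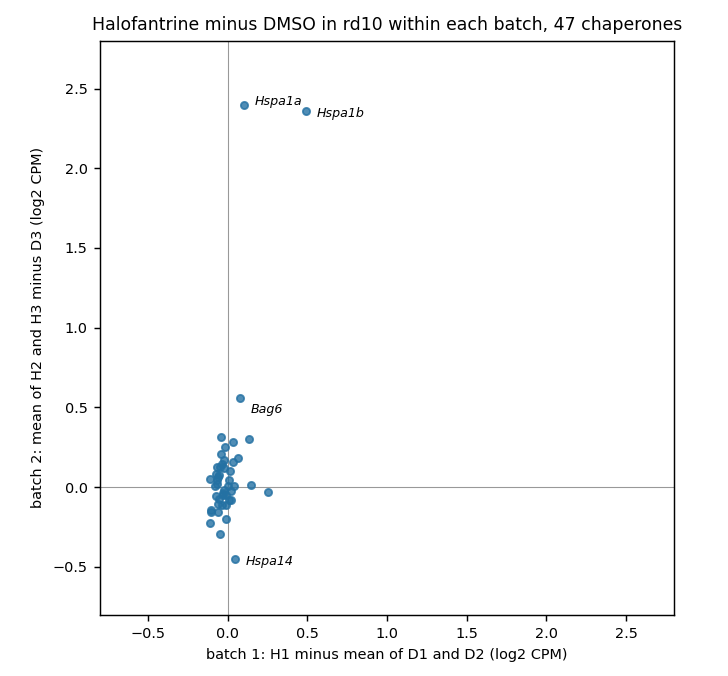
Difference between halofantrine and DMSO in rd10 retinas for each of the 47 chaperones (points), in log2 CPM, within batch 1 (x axis, H1 minus the mean of D1 and D2) and within batch 2 (y axis, mean of H2 and H3 minus D3). Hspa1a and Hspa1b lie at 2.40 and 2.36 in batch 2 and at 0.10 and 0.49 in batch 1, apart from the other points, which lie between -0.45 (Hspa14) and 0.56 (Bag6) in batch 2.

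The comparison of rd10 HAL with WT shares the WT libraries with the first comparison and is given beside it. With all 4 libraries labelled WT, edgeR called 0 members and 1 gene (0.00855%), with 12 members and 33.7% of genes at an unadjusted p under 0.05, and DESeq2 called 5 members and 2221 genes (10.6% and 19.0%). Without W4, 29 members were called, against 71.8% of genes, of which 12 rose and 17 fell, against 35.6% and 36.2%. Bag3 rose by 1.71 and Cryab by 1.38 on the log2 scale, and Hsp90aa1 fell by 0.83, beside 1.72, 1.32 and -0.76 for rd10 DMSO. With W4 in the WT group the values for rd10 HAL were 1.08, 0.88 and -0.65, and none passed.

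Batch was compared within the rd10 libraries, with treatment as a term. Of all genes 6.26% were called, 3.76% higher and 2.5% lower in batch 2, and of the members 2, Hsp90aa1 and Hspa8. Hsp90aa1 was at 940.0, 940.4 and 875 CPM in D1, D2 and H1 and at 1127, 1033 and 991 in D3, H2 and H3, and rose in batch 2 by 0.23 on the log2 scale (adjusted p = 0.037). Hspa8 was at 1522, 1543 and 1513 and 1124, 1407 and 1271 CPM, and fell in batch 2, -0.31 (adjusted p = 0.0499). Stub1, Dnajb2 and Hsp90ab1 came next without passing, with log2 differences of -0.25, -0.25 and -0.18. The counts were unstable, since leaving out single libraries gave 0 to 12 called members: 12 without H1, where 26.2% of all genes were called, 1 without H2 and 0 without D1, D2, D3 or H3. The rod marker sum moved with batch, at 3776 to 4149 CPM in D1, D2 and H1 and 7855 to 11207 in D3, H2 and H3, and its part in these differences was not tested.

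Other chaperone genes were described from 6 wider lists. None of their genes was called by edgeR with all 4 libraries labelled WT, nor with halofantrine. Between batches of the rd10 libraries, 3 of 10 photoreceptor chaperones (Unc119, Pdc and Aipl1) and 1 of 26 other HSP70, HSP110 and HSP90 factors (Cdc37l1) were higher in batch 2, against 3.76% of all genes. The counts that follow, without W4, stand against 32.2% of all genes called higher and 29.9% called lower. Of these lists, 3 of 26 other HSP70, HSP110 and HSP90 factors rose and 4 fell, and 6 of 26 other J-domain genes rose and 10 fell. Of 14 further genes of TRiC, of prefoldin (which hands actin and tubulin to TRiC) and of tubulin folding, 7 fell and 0 rose, and of 12 mitochondrial chaperones and proteases 5 fell and 0 rose. Of 10 chaperones that serve photoreceptor proteins 6 fell and 0 rose, and Hspb6, the single other small heat shock or HSF gene tested, fell.

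From those lists, the genes with the smallest p in each direction in rd10 DMSO against WT DMSO are named, not those with the largest change. Among them, Unc119 carries lipid-modified transducin to the rod outer segment. It was at 1571, 1615 and 1581 CPM in W1, W2 and W3, 286 in W4 and 313, 303 and 410.0 in D1 to D3 (log2 fold change -2.21, adjusted p = 1.3e-05, -1.88 with W4). Pdcl, a phosducin-like co-chaperone of TRiC, fell by less (log2 fold change -0.65, adjusted p = 4.8e-05, -0.55 with W4). Tbcc, a tubulin folding cofactor, fell (log2 fold change -1.41, adjusted p = 2.7e-04, -1.18 with W4), as did Sgtb, a neuronal co-chaperone of HSP70 (log2 fold change -0.65, adjusted p = 6.0e-04, -0.54 with W4). Fkbp5, a steroid receptor co-chaperone of HSP90 that glucocorticoids induce, was at 28.1, 28.9 and 28.8 CPM in W1, W2 and W3 and 50.2, 40.8 and 123 in D1 to D3 (log2 fold change 1.32, adjusted p = 0.041, 1.14 with W4), so that D3 stood far above D1 and D2. Dnajc15, an inner membrane protein of mitochondria, rose (log2 fold change 0.45, adjusted p = 9.0e-04, 0.31 with W4), as did Dnajb9, a J-domain protein of the endoplasmic reticulum (log2 fold change 0.45, adjusted p = 0.0051, 0.32 with W4), and Tomm34, which takes precursor proteins to mitochondria (log2 fold change 0.33, adjusted p = 0.0036, 0.25 with W4).

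Transcript usage, the share of a gene's estimated counts on each transcript, was tested for 216 transcripts of the members. With all 4 libraries labelled WT edgeR called 0 of them, against 0.279% of all 44504 transcripts, and limma's test called 1, against 0.137%. Without W4, 1 was called, against 0.793%. This was the coding transcript ENSMUST00000108797 of Dnajc5, whose share was 13.4, 8.52 and 11.9% in W1 to W3, 20.1% in W4 and 20.8, 20.0 and 22.5% in D1 to D3 (adjusted p = 0.010). In the same gene the share of ENSMUST00000116365, annotated as a target of nonsense-mediated decay, was 35.6, 38.8 and 34.3% and 24.4, 23.8 and 19.8%, which did not pass (adjusted p = 0.13). The shares are estimates of pseudoalignment between overlapping transcripts.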

How the data were processed

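PolyA RNA of mouse retina was measured by stranded RNA-seq in 10 libraries. The authors used kallisto, with the mouse transcriptome of Ensembl release 115 (GRCm39), and then tximport. They deposited estimated counts per transcript and per gene, not scaled, and a table headed CPM that holds the same gene counts divided by 1 factor per library, a scaled signal that sums to 943804 to 1127682 and was used here only as a check. Their table of the halofantrine comparison (fold changes, p-values) was not used.

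Groups and batches came from the labels. Estimated counts were rounded and tested with edgeR 4.0.16 (quasi-likelihood, robust, TMM scaling, filterByExpr) in R 4.3.3, with only the 2 groups compared in each fit, and p-values were adjusted over all genes by Benjamini-Hochberg. A gene was called at an adjusted p under 0.05. CPM values are TMM-scaled. The scripts were tested on simulated data. Nothing in the labels states that the libraries of a group came from separate mice, so p-values measure the spread between libraries, and counting precision follows the library totals. No 2 libraries of the same group agreed within sampling noise. Symbols matched 11492 of 11702 identifiers. Transcript lengths came from GENCODE M21 and promoters from RefSeq, both on GRCm38.p6, another build than the authors' own, so no gene coordinates of the files are given.

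Transcript usage was tested with edgeR's diffSpliceDGE. Alternatives were DESeq2 1.42.0, limma 3.58.1 (voom), other scalings and filters, a batch term, a GC offset and each library left out. Members named with values are those called with or without W4 (at most 25, by p), the 5 with the smallest p for halofantrine and for batch, and fixed members of each role. The members, though listed by name and family, and the wider lists were chosen with earlier results of these data known.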

Additional observations from a re-analysis of the deposited data

Results flagged for a closer look

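In the WT group of 4 libraries, 34 chaperone results were examined for a library whose gap to its nearest neighbour exceeded Dixon's 95% critical share of the whole range. This limit flags about 1 in 20 groups by chance, and 14 exceeded it. Most of the 34 were named because they were called without W4, so their number is not read against that rate. W4 was the library apart in all 14. Genes of 1 library are not independent of each other.

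W4 lay below W1 to W3 for Hspa1b (gap 0.895 of the range), Hspa14 (0.933), Hsp90aa1 (0.868), Hsf2 (0.901), Dnaja4 (0.837), Dnajb1 (0.89), Dnajb2 (0.912), Cct4 (0.839) and Cct5 (0.854). It lay above them for Hspa12a (0.946), Hsp90ab1 (0.905), Cryab (0.87) and Dnaja1 (0.859). The widest gap was that of the ratio of Hsp90aa1 to Hsp90ab1 (0.968), 1.09 in W4 against 3.26 to 3.33 in W1 to W3.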

How the results depend on the processing

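For rd10 DMSO against WT DMSO, DESeq2 gave 3 called members where edgeR gave 0, and leaving out single libraries gave 0 to 27, with 27 only without W4. Further choices made after seeing the data, each without W4, gave 27 (DESeq2), 28 (library size only), 28 (upper quartile), 31 (GC offset) and 31 (batch 1 libraries only), against 62.7, 63.5, 61.8, 67.4 and 72.3% of all genes. All genes called rose from 0 to 7271 without W4 and to 589 with DESeq2. For rd10 HAL against WT DMSO, DESeq2 gave 5 called members and single libraries left out gave 0 to 29, the latter without W4, with 1 gene called in the main comparison, 2221 by DESeq2 and 8401 without W4. For batch in rd10, 2 members were called, and 8 with DESeq2, 1 with limma-voom, 1 at 10 CPM or more, 1 with a GC offset, 0 with all 10 libraries, 0 without the treatment term and 0 to 12 with single libraries left out. The genes called for batch were 732, and 1429 with DESeq2, 444 with limma-voom, 230 without the treatment term, 0 with all 10 libraries and 208 (without D3) to 3060 (without H1) with single libraries left out. For halofantrine no setting called a member. Of member transcripts 0 changed usage, 1 with limma's diffSplice (0.137% of all transcripts), 2 of 223 with all 6 rd10 libraries and W4 left out (1.05%, added after seeing the data), and 0 to 1 with single libraries left out. The causes were not tested.

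The summed log2 fold change of Hspa1a and Hspa1b in rd10 DMSO was -2.35 and not called. It passed with DESeq2 (-2.35) and, without W4, with edgeR (-2.69), a GC offset (-2.68), DESeq2 (-2.69), library size only (-2.48), upper quartile (-2.66) and batch 1 only (-2.50), and ranged from -2.69 to -2.13 with single libraries left out. Its batch difference of 0.48 turned to -0.77 without H1 and was at most 1.47 in that range. Among the values that changed sign, that of Cct8 passed as higher (adjusted p = 0.016) with library size only and W4 left out, as did those of Dnaja2 and Dnajb4. With library size only, Cct2 was at 0.085, Cct7 at 0.060, Cct8 at 0.11, Hspd1 at 0.067 and Hspe1 at 0.11, and with W4 also left out at 0.11, 0.094, 0.19, 0.11 and 0.22. Hspe1 was at 0.049 with batch 1 only, at -0.15 to 0.049 with single libraries left out and, without W4, at 0.015 with edgeR, 0.019 with DESeq2, 0.041 with upper quartile and 0.095 with batch 1 only. Without W4, Cct8 was at 0.0067 with upper quartile and Tcp1 at -0.0054 with batch 1 only. Of the other gene values for rd10 DMSO, 518 kept direction and side of the threshold and 157 passed it. No paired analysis was possible because the labels do not pair libraries across groups. Low levels, as for Hspa1b in rd10 and Bag3 in W1 to W3, carry the least precision.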
